A study of Mus musculus with 4 samples.

Results

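The immunoglobulin light chain variable (V) segments are the gene segments that encode most of the variable, antigen-binding domain of antibody light chains. They were taken as every row of the deposited expression table whose mouse symbol, found from its Ensembl identifier, begins with Igkv (kappa) or Iglv (lambda). This gave 105 of the 23763 rows, 102 kappa and 3 lambda. Spleen RNA had been sequenced from 2 samples labelled wild-type (WT) and 2 labelled KLHL3-KI, a knock-in at Klhl3, which encodes a substrate adaptor of a cullin ubiquitin ligase. All 4 samples are of the C57BL/6J strain and the treatment is given as baseline for each, and total RNA was depleted of ribosomal RNA and made into directional libraries. Age, sex and the allele knocked in are not stated in the sources used here. No label ties the samples to separate animals, so the p-values cannot be taken to cover the spread between animals. They rest on each gene's spread between these samples together with the spread of the other genes tested.

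In each developing B cell, 1 V segment of the kappa or lambda locus is cut and joined to a joining (J) segment by the RAG recombinase, and the joined exon is spliced to a constant exon, Igkc for kappa or an Iglc gene for lambda. A B cell as a rule makes a single kind of light chain, and its descendants keep that choice, so the V segment transcripts of a tissue reflect which cells are present and how much antibody RNA each one makes. Plasma cells, the antibody-secreting end stage, hold far more of this RNA per cell than resting B cells. In bulk RNA, fewer cells of a type and less RNA per cell cannot be told apart.

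The 4 libraries held 8535483 and 8975415 reads in WT, against 9586677 and 10933023 in KLHL3-KI. Values below are the deposited read counts, scaled between libraries, in which 1 read is worth 0.0974 to 0.112, and values are given in the order WT 1, WT 2, KLHL3-KI 1, KLHL3-KI 2. Klhl3 itself stood at 3.02, 4.67, 2.53 and 1.36, which limma did not separate between the groups (log2 fold change -0.72, standard error 0.27, adjusted p = 0.0895). The groups differed widely outside the antibody genes. Of 16970 genes tested with limma on log2(value + 1), 22.8% passed an adjusted p of 0.05, with 15.2% rising and 7.56% falling in KLHL3-KI.

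The germline ends of the segments that the results turn on are shown first, because the end is where the J segment is joined and where the segment's share of an antigen-contacting loop is encoded. Each line gives the last 90 bases of the coding sequence, 5′ to 3′, from the GENCODE M21 transcripts of the C57BL/6J reference. The capitals run from the last in-frame cysteine codon, and the germline part of the third complementarity-determining region begins at the codon after it. These are reference sequences, and the joined and mutated sequences of the cells were not analysed here. The first 4 were each the most abundant segment in 1 library (WT 1, WT 2, KLHL3-KI 1 and KLHL3-KI 2 in that order). The next 4 rose in KLHL3-KI and the last 2 fell.
Igkv19-93: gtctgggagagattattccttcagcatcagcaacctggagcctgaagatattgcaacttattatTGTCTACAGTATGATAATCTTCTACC
Igkv12-46: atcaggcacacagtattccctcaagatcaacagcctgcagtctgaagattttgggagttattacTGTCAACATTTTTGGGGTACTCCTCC
Igkv4-55: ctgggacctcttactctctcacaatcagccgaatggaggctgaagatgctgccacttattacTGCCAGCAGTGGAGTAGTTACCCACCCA
Igkv1-117: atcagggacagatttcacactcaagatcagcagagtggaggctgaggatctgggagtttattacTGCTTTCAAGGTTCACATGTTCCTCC
Igkv10-96: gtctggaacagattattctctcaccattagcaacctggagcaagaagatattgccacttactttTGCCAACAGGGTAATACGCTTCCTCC
Igkv10-94: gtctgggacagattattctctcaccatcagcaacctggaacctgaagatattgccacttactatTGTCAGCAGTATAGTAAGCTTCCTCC
Igkv4-70: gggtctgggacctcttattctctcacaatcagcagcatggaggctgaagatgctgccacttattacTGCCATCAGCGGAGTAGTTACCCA
Igkv6-23: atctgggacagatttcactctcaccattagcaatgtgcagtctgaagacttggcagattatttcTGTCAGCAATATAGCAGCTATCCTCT
Igkv3-4: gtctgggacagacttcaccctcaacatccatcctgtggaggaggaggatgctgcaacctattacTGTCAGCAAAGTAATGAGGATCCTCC
Igkv4-74: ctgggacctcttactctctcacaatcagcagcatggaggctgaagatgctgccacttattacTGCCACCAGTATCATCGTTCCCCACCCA

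Many of these segments resemble another one closely enough for reads to be shared. Of the 105 segments, 52 had another annotated segment at least 95% identical over the coding sequence, 61 shared over 20% of their 50-base stretches with others, and 23 shared none. Igkv19-93 shared none, and Igkv12-46 shared 7.38% of its stretches. Igkv10-96 shared 33.9%, Igkv10-94 46.6%, Igkv4-55 54.1% and Igkv4-70 69.6%. How the counting divided such reads is not stated in the sources used here, so the values of the closely related segments are uncertain in a way that the replicate error does not cover.

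The summed light V signal was 2555 and 2862 in WT, against 3246 and 3679 in KLHL3-KI, or 2709 ± 217 against 3462 ± 306 (SD, n = 2 each), a ratio of 1.28. Both KLHL3-KI libraries lay above both WT libraries. As a share of all reads, light V reads made up 0.268% (exact 95% interval 0.264 to 0.271%) in WT 1, 0.307% in both WT 2 and KLHL3-KI 1, and 0.346% (0.342 to 0.349%) in KLHL3-KI 2. On that scale WT 2 and KLHL3-KI 1 were the same, and the log2 difference of the sums was 0.18 in place of 0.35 when libraries were scaled to equal total reads. With 2 libraries against 2, an exact permutation test cannot give a two-sided p below 0.333, and no p is given for these sums. The intervals cover counting error only.

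The higher sum came from kappa. Kappa V segments summed to 2317, 2518, 3006 and 3500, or 2418 ± 142 in WT and 3253 ± 349 in KLHL3-KI (SD, n = 2 each), a ratio of 1.35. The kappa constant gene Igkc, which every kappa transcript ends in, stood at 3769, 4151, 5311 and 6015 and rose (log2 fold change 0.51, standard error 0.13, limma adjusted p = 0.0209). That call was lost with equal total reads, quantile normalization, no filter on low values and no variance trend (adjusted p = 0.0621, 0.164, 0.0727 and 0.0586), and without WT 1, WT 2 or KLHL3-KI 2 (adjusted p = 0.117, 0.0639 and 0.152). The summed kappa V signal per unit of Igkc was 0.615, 0.607, 0.566 and 0.582, so V and constant signal moved by similar amounts, with both KLHL3-KI ratios a little below the WT ratios.

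**Figure D1:**
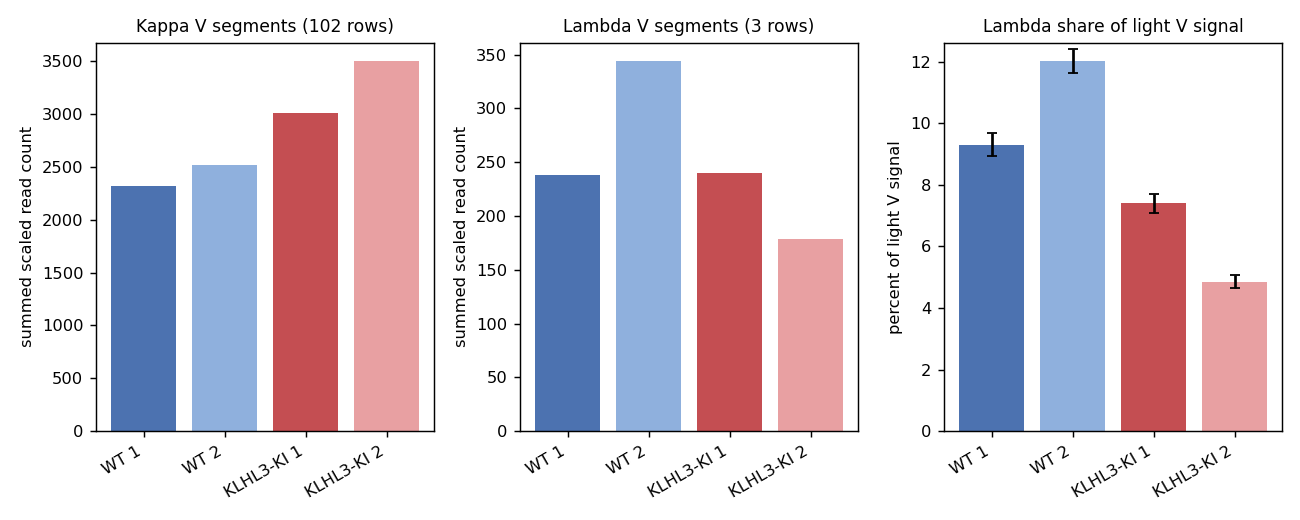
Summed signal of the kappa and lambda V segments and the lambda share of the light V signal in each library, with 1 bar per library. Error bars on the share are exact 95% intervals, which cover counting error only. The kappa sum is higher in both KLHL3-KI libraries (3006 and 3500 against 2317 and 2518), and the lambda share is lower (7.40 and 4.85% against 9.30 and 12.02%).

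Lambda V segments did not share in the increase. Their sum was 238 and 344 in WT, against 240.2 and 178 in KLHL3-KI, or 291 ± 75.1 against 209 ± 43.7 (SD, n = 2 each), and KLHL3-KI 1 lay between the WT libraries, next to the lower one. The lambda share of the light V signal was 9.30% (exact 95% interval 8.93 to 9.69%) and 12.02% (11.6 to 12.4%) in WT, against 7.40% (7.10 to 7.70%) and 4.85% (4.64 to 5.07%) in KLHL3-KI. The group means were 10.7 ± 1.92% and 6.12 ± 1.80%, a difference of -4.54 percentage points, and the groups did not overlap. The lambda share does not depend on how libraries are scaled. The constant genes gave the same order of groups, with Iglc genes at 10.4, 11.4, 7.24 and 4.65% of all light constant signal.

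The mouse lambda locus is small, and all 3 of its V segments in the table were tested. Iglv1, the most abundant, stood at 170.2, 279, 185 and 148, with overlapping groups (log2 fold change -0.39, standard error 0.20, limma adjusted p = 0.193). It passed without WT 1 (adjusted p = 0.0282) or KLHL3-KI 1 (adjusted p = 0.0165). Iglv2 stood at 35.0, 29.5, 24.2 and 17.5 and fell (log2 fold change -0.62, standard error 0.16, limma adjusted p = 0.0250), a call lost without WT 1, WT 2 or KLHL3-KI 2 in turn (adjusted p = 0.188, 0.0854 and 0.103) and with no variance trend (adjusted p = 0.0882). Iglv3 stood at 32.6, 35.4, 30.6 and 12.9, with both KLHL3-KI values below the WT values but mostly through KLHL3-KI 2, and missed the threshold (log2 fold change -0.74, standard error 0.30, limma adjusted p = 0.111) except without KLHL3-KI 1 (adjusted p = 2.94e-07). In every fit that leaves a group with 1 library, that library is assumed to vary like the others.

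The coding sequences of Iglv1 and Iglv2 are 96.9% identical over 351 bases, with 11 differences. Their last 270 bases are printed because reads of either segment can match both: they share 25.2% of their 50-base stretches. The capitals mark the 7 positions of this stretch at which they differ.
Iglv1: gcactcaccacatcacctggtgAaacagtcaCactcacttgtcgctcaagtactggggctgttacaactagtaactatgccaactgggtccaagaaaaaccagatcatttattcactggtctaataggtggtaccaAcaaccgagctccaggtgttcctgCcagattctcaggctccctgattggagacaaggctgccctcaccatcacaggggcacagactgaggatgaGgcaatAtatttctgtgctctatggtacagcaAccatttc
Iglv2: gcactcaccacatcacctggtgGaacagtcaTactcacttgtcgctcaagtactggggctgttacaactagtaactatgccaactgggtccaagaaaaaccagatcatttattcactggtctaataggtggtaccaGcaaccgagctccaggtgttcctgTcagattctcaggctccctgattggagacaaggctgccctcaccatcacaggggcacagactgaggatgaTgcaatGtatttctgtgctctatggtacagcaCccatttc

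Among the constant genes of the lambda locus, Iglc2 stood at 222, 211, 183 and 119 and fell (log2 fold change -0.54, standard error 0.17, limma adjusted p = 0.0445), a call lost in 8 of the 16 other settings, among them edgeR on the reads (adjusted p = 0.0556) and the fits without WT 1, WT 2 or KLHL3-KI 2 (adjusted p = 0.216, 0.191 and 0.223). Iglc1, to which Iglv1 is joined as a rule, stood at 140.1, 256, 164 and 118 (log2 fold change -0.44, standard error 0.24, limma adjusted p = 0.227), and passed without WT 1 (adjusted p = 0.0334) or KLHL3-KI 1 (adjusted p = 0.00894). The ratio of Iglv1 to Iglc1 was 1.22, 1.09, 1.13 and 1.25, close in all 4 libraries. Iglc3 had lower values in KLHL3-KI without passing (75.1, 68.5, 66.7 and 55.3, limma adjusted p = 0.182; 0.0419 without KLHL3-KI 1 and 0.0291 with equal total reads), and Iglc4 had 2 to 5 reads in a library.

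Of the 105 segments, 8 had a mean value of at least 100, 48 a mean from 10 to 100, 31 a mean from 1 to 10 and 18 a mean under 1. The distribution was uneven in every library. The 10 segments with the highest mean over the 4 libraries took 52.4 and 49.9% of the light V signal in WT, against 48.0 and 51.4% in KLHL3-KI. The same 10 were summed in each library, so these are not the shares of each library's own leading segments. Ranked per kilobase of exon, Igkv4-55, Igkv19-93, Igkv12-46, Iglv1 and Igkv1-117 led. The 12 segments with the highest mean value also led per kilobase.

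Each library had its own leading segment. Igkv19-93 took 21.2% of the light V signal of WT 1 (exact 95% interval 20.7 to 21.8%), Igkv12-46 took 16.3% of WT 2 (15.8 to 16.7%), Igkv4-55 took 12.8% of KLHL3-KI 1 (12.4 to 13.2%) and Igkv1-117 took 8.56% of KLHL3-KI 2 (8.28 to 8.85%). Igkv19-93 stood at 543, 37.4, 190.0 and 86.3, so that the highest and the lowest value were both WT. Its log2 fold change of -0.16 had a 95% interval from -2.25 to 1.93 (limma adjusted p = 0.923), and it was 1.75 without WT 1 (adjusted p = 0.0384) and -2.08 without WT 2 (adjusted p = 0.0245). Igkv12-46 showed the same pattern with the WT libraries exchanged, at 32.7, 466, 75.2 and 205, and its fitted difference was -0.00 (standard error 0.94, limma adjusted p = 1.00). Neither segment separated the groups.

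**Figure D2:**
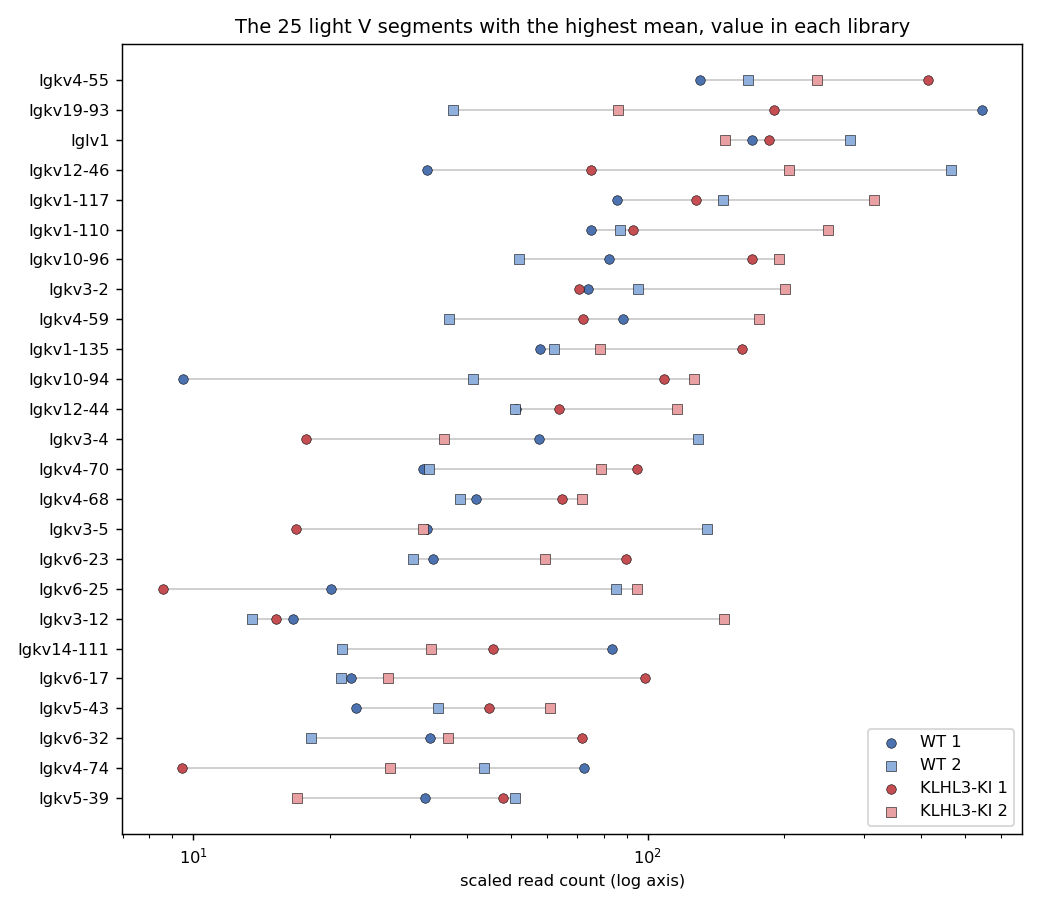
The 25 light V segments with the highest mean value, with 1 point per library on a log axis of the scaled read count. Igkv19-93 runs from 37.4 to 543 and Igkv12-46 from 32.7 to 466 within WT alone, whereas for Igkv4-70 the 2 libraries of a group lie close (32.0 and 33.0, 94.8 and 79.1) and the groups are apart.

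The effective number of segments, which is the number of equally used segments that would give the same Shannon entropy of use, was 36.0 and 35.2 in WT, against 40.3 and 39.0 in KLHL3-KI (35.6 ± 0.575 against 39.7 ± 0.953, SD, n = 2 each). The difference of 4.11 turned to -3.05 when the most used segment of each of the 4 libraries was left out, so the direction depends on whether those 4 segments are counted.

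Some of the other abundant kappa segments passed the test and some did not, and replicates lay apart among both. Igkv4-55, the segment with the highest mean, stood at 130.4 and 166 in WT, against 415 and 237 in KLHL3-KI and rose (log2 fold change 1.08, standard error 0.22, limma adjusted p = 0.00696). Its call was lost without WT 1 and with the no-trend and robust variance models, where adjusted p reached 0.208. Igkv1-117 (85.6, 146, 128 and 315) and Igkv1-110 (75.1, 86.9, 92.8 and 249.7), which are 97.2% identical, were both highest in KLHL3-KI 2 and did not pass (limma adjusted p = 0.129 and 0.0898). Igkv3-2 (73.8, 95.3, 70.6 and 200.3) and Igkv4-59 (88.4, 36.6, 72.2 and 176) were likewise highest in KLHL3-KI 2, with overlapping groups (limma adjusted p = 0.365 and 0.134). Without KLHL3-KI 1 all 4 of these passed, with limma adjusted p from 1.06e-10 to 1.10e-05. Igkv1-135 (58.0, 62.2, 161 and 78.6) and Igkv12-44 (51.4, 51.2, 64.0 and 116) passed with 1 high KLHL3-KI library each (limma adjusted p = 0.0329 and 0.0378). Those calls held in 8 and 6 of the 16 other settings tried, and both were lost without WT 1 and without WT 2, and Igkv12-44 also without KLHL3-KI 2, with adjusted p up to 0.341 and 0.275.

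The libraries of 1 group differed in V segment use far more than in other genes. The median fold between the WT replicates was 1.57 for the 87 segments tested and 1.10 for all tested genes, and between the KLHL3-KI replicates it was 1.81 and 1.11, with folds taken on value + 1. Of the 87 segments, 22 (25.3%) were over 2-fold apart between the WT libraries and 37 (42.5%) between the KLHL3-KI libraries, against 0.990% and 1.01% of the 16970 genes. Among genes with a mean of at least 10 the shares were 26.8% and 48.2% of 56 segments, against 0.444% and 0.633% of 10580 genes. The median residual SD on the log2 scale was 0.635 for the segments and 0.130 for all genes. The limma fit draws each gene's variance toward that of genes of similar value. With 2 libraries a group, a standard error from a segment's own replicates alone would equal its residual SD. For Igkv4-55 the residual SD was 0.439 and the limma standard error 0.221, and for Igkv10-94 they were 1.01 and 0.478. The standard errors of such variable segments are therefore smaller than their own replicates give.

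Libraries of different groups were about as alike as replicates in which segments they used. The part of the light V signal that 2 libraries had in common, summing the smaller share of each segment, was 63.2% for the WT libraries, 67.0% for the KLHL3-KI libraries and 59.2 to 66.4% for the 4 pairs across groups. Across the 87 segments, Pearson's r of the log2 values was 0.798 within WT, 0.780 within KLHL3-KI and 0.751 to 0.837 across groups. Across all genes it was 0.989 within either group and 0.949 to 0.967 across them. These correlations are over genes, which are not independent replicates and share the libraries' depth.

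**Figure D3:**
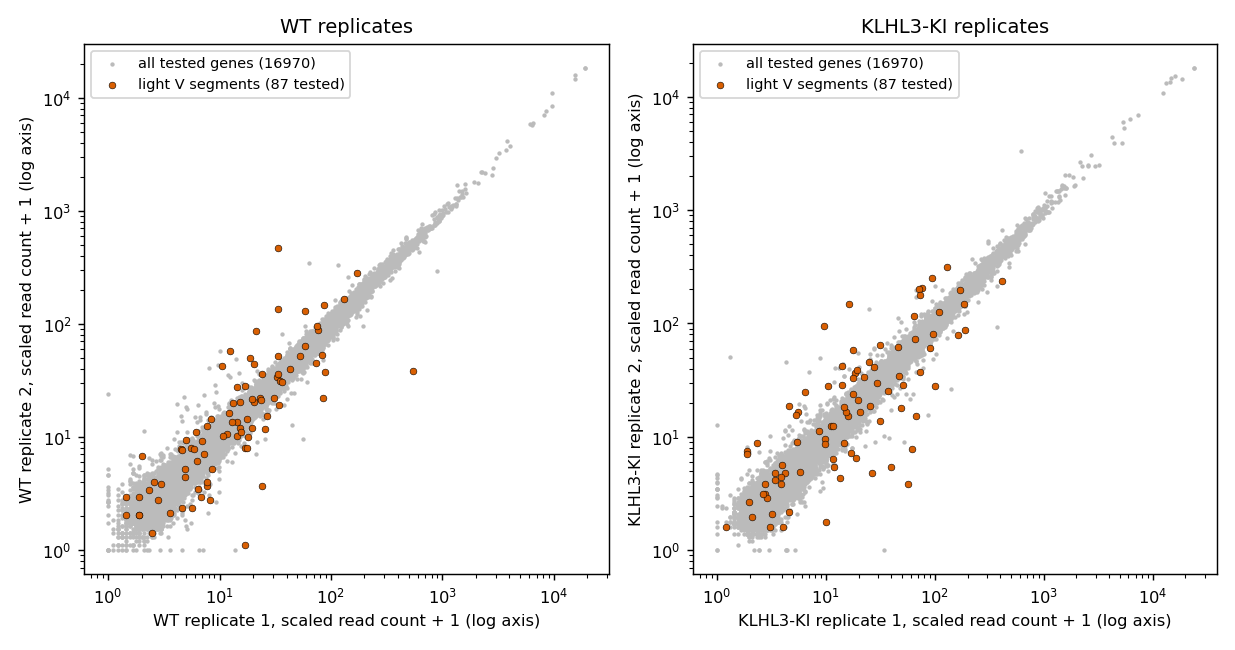
Values of the light V segments in replicate 1 against replicate 2 of each group, as scaled read count + 1 on log axes, over all tested genes in grey. Light V segments scatter far off the diagonal, with 22 of 87 over 2-fold apart in WT and 37 in KLHL3-KI, while 0.990% and 1.01% of all genes are.

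Some segments were high in a single library. Of the 66 segments with a mean of at least 5, 11 (16.7%) had 1 library at least 3 times the next highest, against 0.231% of the 12561 genes with such a mean. KLHL3-KI 1 held 6 of them, WT 2 and KLHL3-KI 2 held 2 each and WT 1 held 1. The examples that follow were chosen after their values were seen. Igkv3-12 stood at 16.6, 13.5, 15.2 and 147, so that KLHL3-KI 2 exceeded the next library 8.90-fold. Igkv12-98 (6.71, 2.70, 55.7 and 2.82) and its neighbour in the locus Igkv1-99 (5.37, 2.49, 38.7 and 4.38) were both high in KLHL3-KI 1 only. Igkv4-80 was high in WT 1 (23.0, 2.70, 3.19 and 3.80) and Igkv3-5 in WT 2 (32.7, 135, 16.9 and 32.0).

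In the test of the groups, 19 of the 87 segments rose in KLHL3-KI, all of them kappa, 6 fell (5 kappa and Iglv2), and 62 did not pass. The 25 that passed are 28.7% of those tested, against 22.8% of all genes. The part that rose (21.8%) stood beside 15.2% of all genes and the part that fell (6.90%) beside 7.56%. Both KLHL3-KI values lay above both WT values for 26 segments (29.9%, against 32.8% of all genes) and below them for 13 (14.9%, against 31.9%), and the groups overlapped for 48. The median log2 fold change was 0.32 over the segments, with a range from -1.74 to 2.49, and -0.01 over all genes.

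Those counts moved with the libraries and the scaling. Leaving out WT 1, WT 2 or KLHL3-KI 1 gave 11, 9 and 31 segments that rose and 8, 4 and 17 that fell. DESeq2, a fit with no variance trend and one with a robust variance model gave 11, 7 and 8 that rose. None of the 4 that fell without WT 2 were among the 6. With equal total reads 14 rose and 9 fell, and with haemoglobin, immunoglobulin and mitochondrial genes removed before scaling 14 rose and 8 fell. Those scalings put the median of all genes at -0.16 and -0.14.

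**Figure D4:**
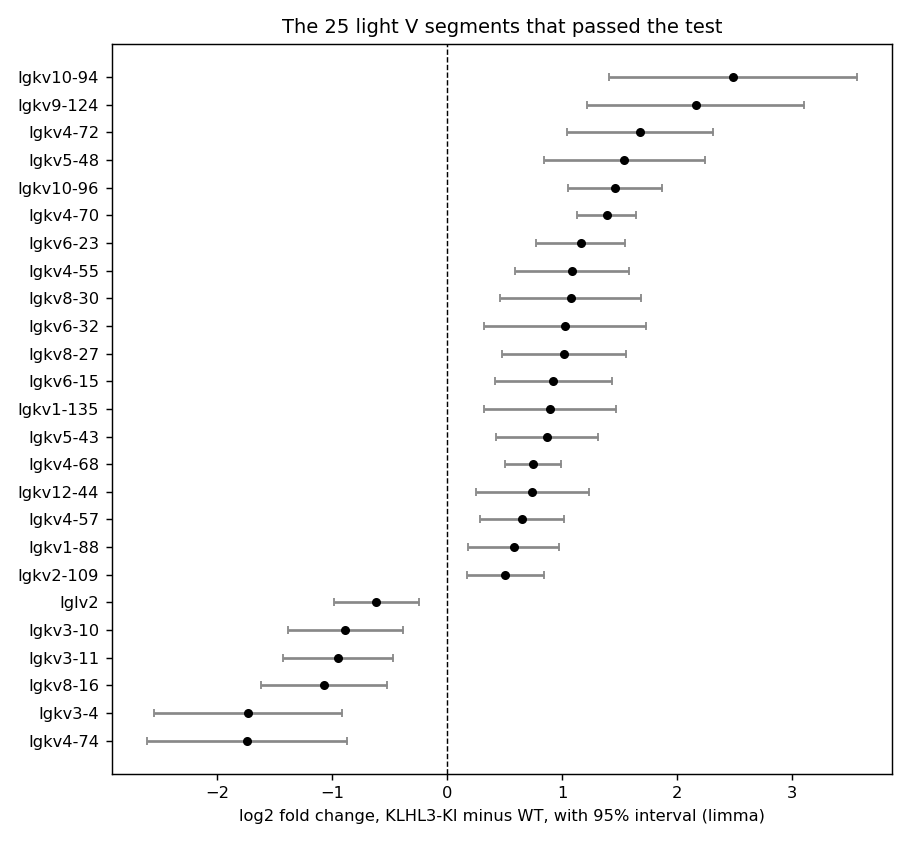
Log2 fold change, KLHL3-KI minus WT, of the 25 light V segments with a limma adjusted p under 0.05, with its 95% interval, 19 above 0 and 6 below. Intervals are narrowest for Igkv4-68 and Igkv4-70 and widest for Igkv10-94, which lay at 9.51 in WT 1 and 41.2 in WT 2.

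Among the segments that rose, 4 passed in all 16 other settings tried, and they were singled out after that was seen. Igkv4-70 stood at 32.0 and 33.0 in WT, against 94.8 and 79.1 in KLHL3-KI (log2 fold change 1.39, standard error 0.12, limma adjusted p = 2.79e-05). Igkv10-96 stood at 82.3, 52.1, 169.6 and 195 (log2 fold change 1.46, standard error 0.18, limma adjusted p = 3.95e-04). The replicates of Igkv4-70 lay close in both groups, those of Igkv10-96 lay further apart in WT, and neither segment's groups overlapped. Igkv6-23 stood at 33.7, 30.5, 89.5 and 59.4 (log2 fold change 1.16, standard error 0.17, limma adjusted p = 0.00118). Igkv4-68 had a smaller difference with the replicates close together, at 41.8, 38.7, 64.8 and 71.8 (log2 fold change 0.75, standard error 0.11, limma adjusted p = 0.001002).

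The largest fold changes belonged to segments with a wider spread. Igkv10-94 stood at 9.51, 41.2, 109 and 126 (log2 fold change 2.49, standard error 0.48, limma adjusted p = 0.00520). Igkv9-124 stood at 6.27, 6.12, 16.9 and 57.1 (log2 fold change 2.16, standard error 0.42, limma adjusted p = 0.00536). Their calls were lost in 3 and 4 of the 16 settings, Igkv9-124 without WT 1 and without WT 2 among them, with adjusted p up to 0.244 and 0.229. Igkv4-72 stood at 11.2, 15.4, 30.7 and 63.2 (log2 fold change 1.68, standard error 0.28, limma adjusted p = 0.00250), and its call was lost without WT 1 and with the robust model, at most at adjusted p = 0.135. Igkv5-48, which shares no 50-base stretch with another segment, stood at 15.9, 6.95, 26.9 and 39.9 (log2 fold change 1.54, standard error 0.31, limma adjusted p = 0.00645), a call lost without WT 2 and in 3 other settings, with adjusted p up to 0.192. The other 8 that rose and are not described singly were Igkv8-30, Igkv6-32, Igkv8-27, Igkv6-15, Igkv5-43, Igkv4-57, Igkv1-88 and Igkv2-109, with log2 fold changes from 0.51 to 1.07. They passed in 7 to 14 of the 16 settings, and each was lost without at least 1 of the 4 libraries.

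Of the 6 segments that fell, 3 belong to the Igkv3 family. Igkv3-4 stood at 57.6 and 129 in WT, against 17.7 and 35.7 in KLHL3-KI (log2 fold change -1.73, standard error 0.36, limma adjusted p = 0.00796). Igkv3-10 stood at 15.8, 27.1, 10.1 and 11.4 (log2 fold change -0.89, standard error 0.22, limma adjusted p = 0.0186). Igkv3-11, annotated as a pseudogene, stood at 5.93, 8.20, 2.86 and 3.41 (log2 fold change -0.95, standard error 0.21, limma adjusted p = 0.0109), and it shares 78.6% of its 50-base stretches with other Igkv3 segments. In each of these 3, WT 2 was the highest library, and each call was lost without it, at adjusted p up to 0.264, 0.151 and 0.125 over the settings tried. Igkv4-74 stood at 72.5, 43.7, 9.47 and 27.2 (log2 fold change -1.74, standard error 0.39, limma adjusted p = 0.0107), a call lost without WT 1 or WT 2 and in 3 other settings, with adjusted p up to 0.282. Igkv8-16 was low throughout, at 4.92, 6.85, 1.76 and 2.82 (log2 fold change -1.07, standard error 0.24, limma adjusted p = 0.0119), and was lost without WT 2 (adjusted p = 0.137).

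By family, the Igkv4 group was the largest, with 29 segments that took 19.9, 17.1, 23.9 and 21.5% of the light V signal. Of its 22 tested members 5 rose and 1 fell. Of all segments tested 21.8% rose and 6.90% fell, and of all genes 15.2% and 7.56%. Igkv10 differed most clearly for its spread, and was singled out after the values were seen. It took 3.603 and 3.282% in WT, against 8.59 and 8.74% in KLHL3-KI (3.44 ± 0.227 against 8.66 ± 0.106%, SD, n = 2 each). Its tested members Igkv10-96 and Igkv10-94, which share 50-base stretches, both rose. Between WT 1 and WT 2 they moved in opposite directions, from 3.22 to 1.82% and from 0.372 to 1.44%. The WT spread of the family share is therefore smaller than that of its members. The shares of Igkv4, Igkv1 (9.29 and 10.996% in WT, 13.5 and 18.0% in KLHL3-KI) and Igkv6 (6.29, 7.05, 10.7 and 7.50%) were also higher in both KLHL3-KI libraries. Those of Igkv3 (8.67, 14.6, 4.70 and 11.9%), Igkv12 (3.91, 18.8, 6.49 and 9.04%) and Igkv19 (21.2, 1.31, 5.85 and 2.35%) overlapped between the groups. So did the shares of every kappa family not named here. Among all tested genes, both KLHL3-KI values lay above both WT values for 32.8% and below them for 31.9%. Igkv19 has the single member Igkv19-93, and the Igkv12 share of WT 2 was mostly Igkv12-46.

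The kappa segments are numbered from 1, next to the J segments, outward along the locus. Segments numbered 92 to 137 took 48.7, 25.7, 42.5 and 38.3% of the kappa signal, those numbered 46 to 91 took 24.8, 39.2, 30.5 and 30.4%, and those numbered 1 to 45 took 26.5, 35.2, 26.9 and 31.3%. All 3 stretches overlapped between the groups, and in each stretch the highest and the lowest library were both WT. The high outer share of WT 1 held Igkv19-93, and the high middle share of WT 2 held Igkv12-46. Kappa segments lie in both orientations, and those opposite to Igkc, which join by inversion, took 67.3, 58.7, 64.1 and 59.0% of the signal. Of the tested segments in that orientation 17 of 51 rose and 2 fell, and of those oriented as Igkc 2 of 33 rose and 3 fell. Of all genes tested, 15.2% rose and 7.56% fell. Some of the 17, such as Igkv4-55, Igkv4-68 and Igkv4-70, share 50-base stretches with one another, so the segments are not independent. The difference between the orientations was not tested.

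**Figure D5:**
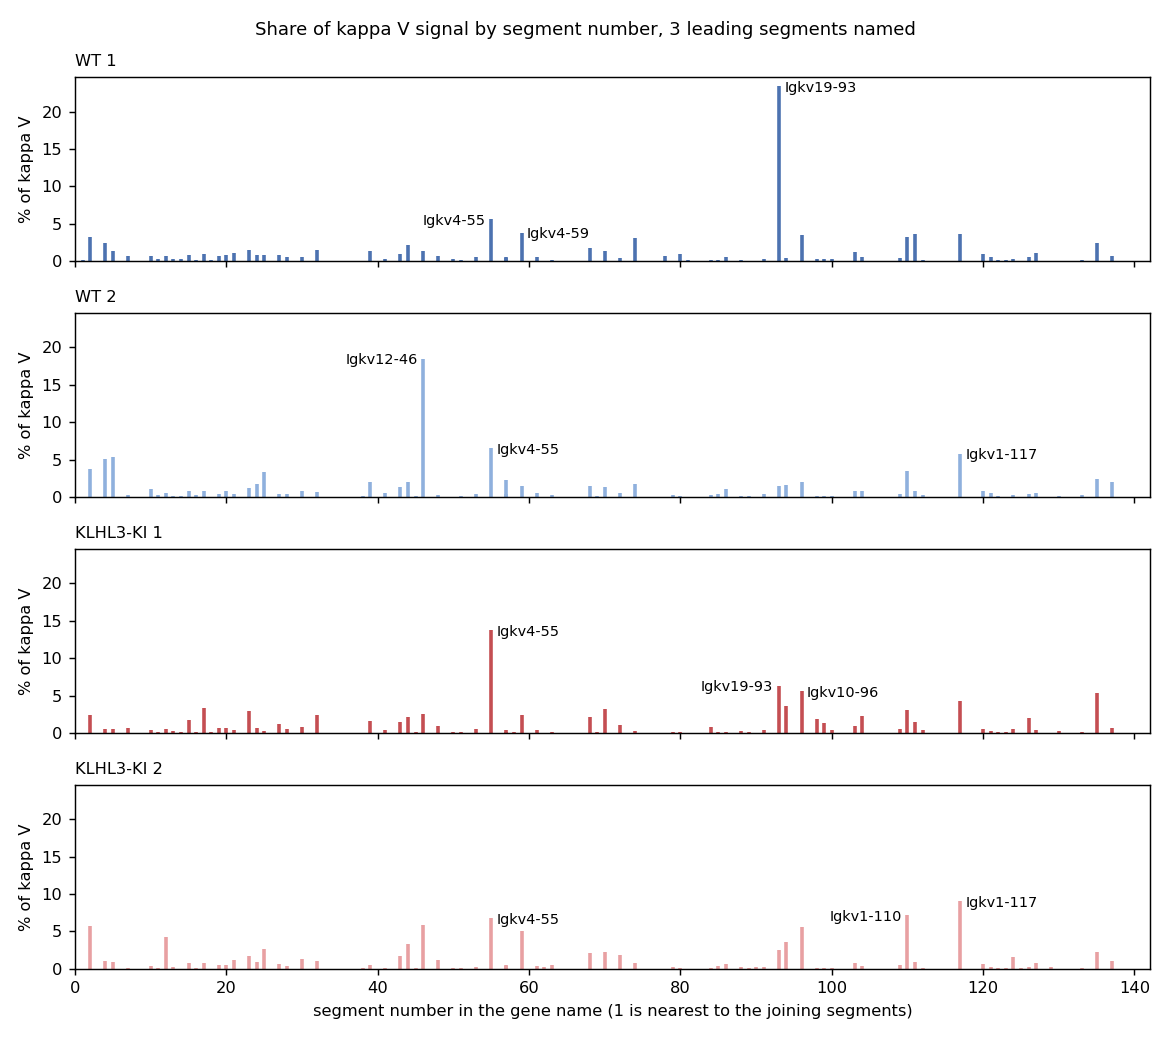
Share of the kappa V signal taken by each segment in each library, in percent, against the number in the segment's name, which counts outward from the J segments, with the 3 leading segments of each library named. Each library has a different highest bar, Igkv19-93 in WT 1, Igkv12-46 in WT 2, Igkv4-55 in KLHL3-KI 1 and Igkv1-117 in KLHL3-KI 2.

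The 18 segments under the minimum mean had reads in at least 1 library each, 8 of them in every library, and the highest value among them was 2.46 (Igkv4-81 in WT 1). Igkv10-95, the closest relative of Igkv10-94 at 97.1% identity, was in this group, at 0.22, 0.62, 0.44 and 0.10. So of the 3 Igkv10 segments, 2 were abundant and the third nearly silent in every library. The 7 segments annotated as pseudogenes took 0.302, 0.359, 0.115 and 0.138% of the light V signal, lower in both KLHL3-KI libraries, and Igkv3-11 was the only 1 of them tested.

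Of 20 light chain locus and assembly genes listed, 11 had rows and 6 were tested, of which Igkc rose and Iglc2 fell. Rag1, which makes the cuts for joining, had 5, 18, 2 and 2 reads, and Rag2, Vpreb1 and Igll1, the last 2 of which form the surrogate light chain of precursor B cells, had 0 to 3 reads each. Vpreb3, a precursor and immature B cell gene, stood at 12.4, 14.1, 10.4 and 7.40 (limma adjusted p = 0.0618, and 0.00635 without KLHL3-KI 1), and Dntt, which adds bases at junctions, at 1.68, 1.66, 0.99 and 2.34 (limma adjusted p = 0.923).

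Markers of B cells, T cells, erythroid cells and neutrophils moved with the groups, while the sums of plasma cell markers, with Jchain included, overlapped between them. By the same limma test, of 15 B cell markers 14 fell and none rose (median log2 fold change -0.70), and their summed value was 4807, 5075, 3640 and 2803. Both KLHL3-KI libraries had a higher kappa V sum and a lower B cell marker sum than either WT library. Within WT the library with the higher marker sum also had the higher kappa sum. Within KLHL3-KI the library with the higher marker sum had the lower kappa sum. Of 15 plasma cell markers 1 rose and 3 fell (median -0.10), with sums of 2703, 2814, 2776 and 3306. Jchain alone held 1413, 1497, 1557 and 2056 of those sums. Without Jchain, the rest of the sum was lower in both KLHL3-KI libraries than in either WT library. Of 9 germinal centre B cell markers 4 fell, with sums of 180.2, 176, 138 and 98.7. All 10 erythroid markers rose (sums 1796, 1427, 6860 and 7790), all 10 neutrophil markers rose and all 11 T cell markers fell. Beside these counts, 15.2% of all tested genes rose and 7.56% fell. No marker of these lists was at 0 in any library. The part of these cell types in the light V results was not tested.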

How the data were processed

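Spleen RNA-seq of 2 WT and 2 KLHL3-KI samples was analysed from the table the authors deposited. Per the submitters' processing notes, Trimmomatic 0.38, Bowtie2, RSEM 1.3.0, edgeR and build GRCm39 were used. Their order, the annotation used and how reads that match several segments were handled are not stated there. The deposited values are a normalized signal per gene, which the authors name normalized counts. In each library they are whole multiples of 1 read (100% of values, to a tolerance of 0.001 of a read), from which reads per gene were recovered.

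Symbols came from GENCODE M21 (23605 of 23763 rows named), and 58 of its 163 light V segments have no row and were not analysed here. Coordinates are not printed, since that annotation is of another build. Genes with a mean of at least 1 were tested with limma 3.58.1 (R 4.3.3) on log2(value + 1), with a variance trend and Benjamini-Hochberg adjustment over all 16970 genes. A gene rose or fell when the adjusted p was under 0.05. Fold changes on this scale understate those of low genes. Segment sequences were compared with edlib 1.3.9.post1 and by shared 50-base stretches. Intervals of shares are exact (Clopper-Pearson).

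Named were the 12 segments of highest mean, the lambda segments, up to 8 passing segments of largest fold change in each direction whose groups did not overlap, and a fixed list of light chain locus genes. Others named were chosen after their values were seen. The members and lists were chosen with earlier results of these data known. Alternatives included edgeR 4.0.16 and DESeq2 1.42.0 on the recovered reads, other scalings, filters, pseudocounts and variance models, a replicate block and leaving out each library. The fits were tested on simulated data.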

Additional observations from a re-analysis of the deposited data

How the results depend on the processing

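Under DESeq2, with no variance trend and with a robust variance model, 11, 7 and 8 segments rose, and with no trend 3 fell. Without 1 library at a time, 9 to 31 rose and 4 to 17 fell. The log2 difference of the summed signal was 0.18 with equal total reads, and 0.55 without Igkv19-93 and Igkv12-46. Without those 2 segments, and without the leading segment of each of the 4 libraries, the lambda share differed by -6.63 and -7.08 percentage points. In the same order, the effective number of segments differed by -5.91 and -3.05. The share of the 10 segments with the highest mean over the 4 libraries differed by 9.41 and 5.07 points, against -1.44 with all segments. Without 1 library at a time that last difference ran from -3.12 to 0.24. The robust model and both omissions were chosen after seeing the data, and leaving out the 2 segments that lead WT alone makes WT use more even by construction. The causes of the other shifts were not tested.

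Log2 fold changes turned sign when 1 library was left out for Igkv19-93 (-2.08 to 1.75), Igkv12-46 (-1.90 to 1.90), Igkv3-2 (-0.25 to 1.25) and Dntt (-0.42 to 0.32), with a pseudocount of 0.1 for Igkv12-46 (0.00883) and with edgeR for Dntt (0.00253). Among all settings of the named genes, 66 lost the call and 22 gained it with the direction kept, and 8 reversed direction. The rest kept direction, and side of the threshold where an adjusted p was given.

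The labels do not say that replicate numbers pair samples, and deviations of same-numbered samples correlated at -0.03 over 16970 genes and at 0.27 over the 87 tested segments. With a replicate block, 28 segments rose and 11 fell. The correlations and the block used the numbers of the sample titles. The library names number the samples otherwise (WT_Sp_2, WT_Sp_3, KI_Sp_1 and KI_Sp_3, in the order of the values above).

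The comparison rests on 2 libraries a group and on segments whose replicates differ strongly. Light V reads numbered 22839 to 37773 a library, and segments with few reads, above the minimum as well as below it, are limited by counting error too.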
